A study of Mus musculus with 6 samples.

Results

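Patrolling monocytes are Ly6c-low blood monocytes that crawl along the inner wall of small vessels, clear debris and dying endothelial cells, and also populate the spleen. In the mouse they depend on the nuclear receptor Nr4a1, carry much of the fractalkine receptor Cx3cr1 and little Ly6c, and arise largely from classical Ly6c-high monocytes. The 10 genes described here mark this programme, namely the transcription factors Nr4a1 and Klf2, the fractalkine receptor Cx3cr1, the surface proteins Ace, Spn and Ceacam1, the receptors Treml4 and Cd300e, and Eno3 and Pglyrp1. They were taken by their Entrez gene identifiers from 16058 genes listed in at least 1 library, and all 10 were listed in all 6 libraries and passed the filter on low values.

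Spleens of C57BL/6 mice aged 6 to 8 weeks supplied the macrophages, which had been sorted into 3 gates called Ly6cloF4/80lo, Ly6cloF4/80hi and Ly6chiF4/80lo. T-ALL mice had received 1000000 GFP+ leukemia cells each with no irradiation beforehand and were taken at day 15, ahead of the 35 to 40 days that such mice survived. Normal spleen is the same strain at day 0; the titles call it normal, while the protocol text counts it as day 0 of the leukemia mice. Each gate was sequenced once in T-ALL and once in normal spleen, so there are no replicates, and the labels state neither the oncogene of the leukemia nor the number of mice behind a library.

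The values are FPKM, fragments scaled for transcript length and for the mapped fragments of the library. Depth recovered from the spacing of low FPKM values was 6790000 to 8830000 reads per library. From this depth and the median transcript length of each gene, the estimated counting error of a single member value ranged from 1.21% to 9.89%. It leaves out any difference between animals and any splitting of reads between related genes. The gates carried the RNA of their sort markers. Ly6c2, which encodes the Ly6c antigen of classical monocytes, had 1405.14 FPKM in T-ALL and 481.9 FPKM in normal Ly6chiF4/80lo cells and 11.76 to 21.44 FPKM in the 4 Ly6clo libraries. Adgre1, which encodes F4/80, had 234.45 FPKM in T-ALL and 529.16 FPKM in normal Ly6cloF4/80hi cells and 47.31 to 86.69 FPKM in the other libraries. The macrophage genes Csf1r (217.88 to 1487.67 FPKM) and Cd68 (165.7 to 600.64 FPKM) were present in all 6 libraries, as was the B cell gene Cd79a (450.16 to 1167.08 FPKM). In such sorted bulk RNA, fewer cells of a type and less RNA per cell cannot be told apart.

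Most of the 10 genes were not highest in the Ly6c-low gates, where patrolling monocytes would be sought. Their summed level was 1091.68 FPKM in T-ALL and 953.34 FPKM in normal Ly6cloF4/80lo cells, 534.84 and 921.99 FPKM in T-ALL and normal Ly6cloF4/80hi cells, and 1458.77 and 2265.69 FPKM in T-ALL and normal Ly6chiF4/80lo cells. Of the 10 genes, 6 had their highest value in normal Ly6chiF4/80lo cells (Nr4a1, Cx3cr1, Ace, Spn, Eno3 and Ceacam1), the library in which 14.65% of the 7739 genes with at least 10 FPKM somewhere were highest. Normal Ly6cloF4/80hi cells held the lowest value of 6 members, against 25.49% of those 7739 genes. Of the summed level in that library, 921.99 FPKM, Treml4 alone made up 510.97 FPKM. The gates are therefore called by their sort names only, and none is called a patrolling monocyte population.

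**Figure D1:**
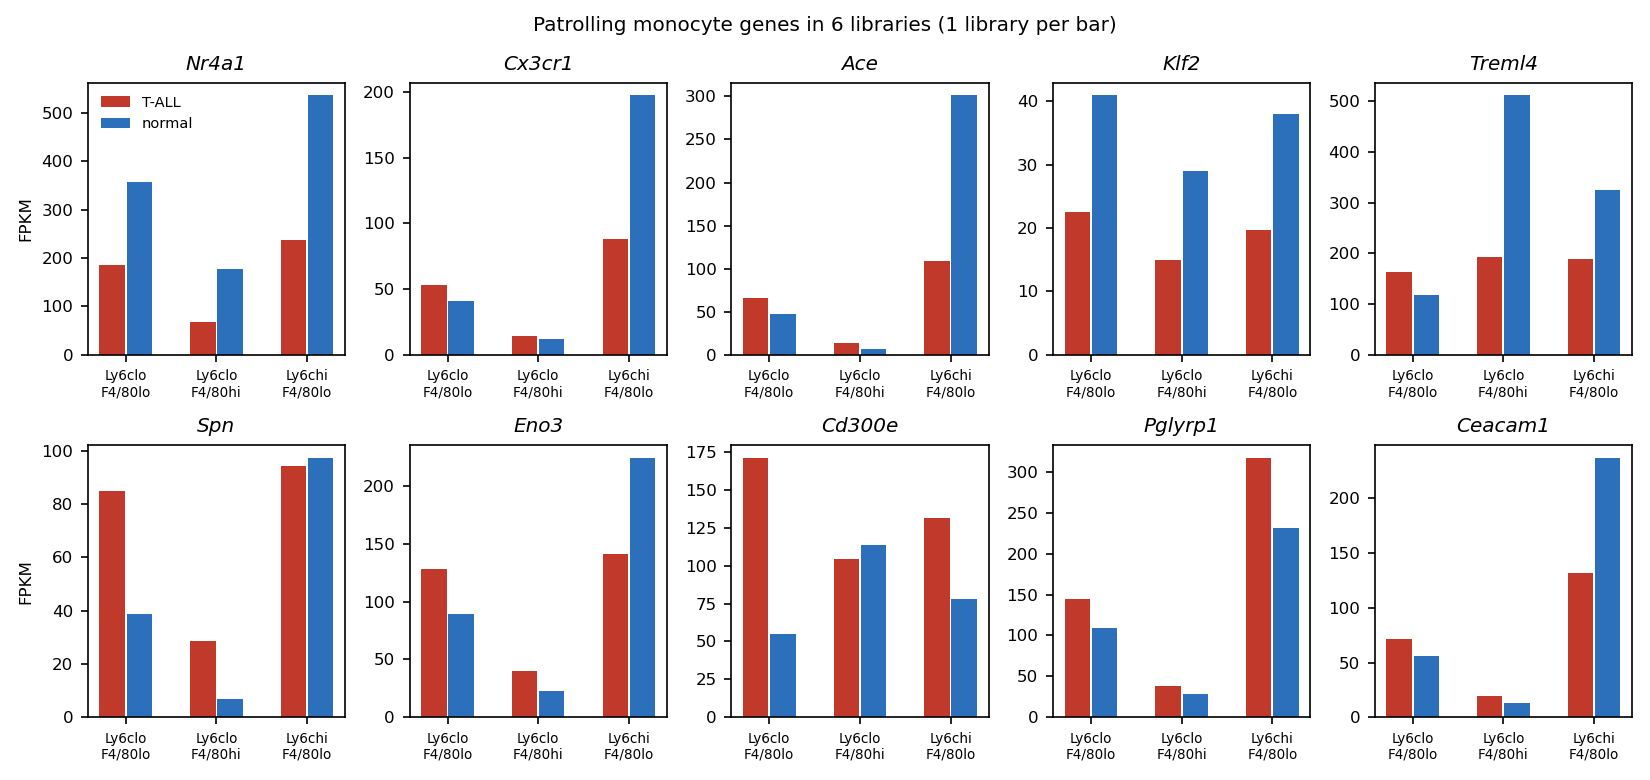
FPKM of the 10 genes (y axis, linear, starting at 0, own scale per gene) in 3 gates (x axis), with T-ALL in red left of normal in blue. Each bar is 1 library, so there are no error bars. Cx3cr1, Ace, Ceacam1, Spn and Eno3 share 1 order of libraries, highest in normal Ly6chiF4/80lo cells and lowest in normal Ly6cloF4/80hi cells. Treml4 has its highest bar, 510.97 FPKM, in normal Ly6cloF4/80hi cells.

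The promoters of the 2 members that differed between T-ALL and normal spleen in the fit below, Nr4a1 and Klf2, are shown with those of Cx3cr1, a member with a large difference between gates, and Spn, the member with the most motif matches. The 250 bases before the annotated start come from RefSeq (GRCm38.p6), where all 10 members had an entry, and read 5′ to 3′ on the strand of the gene. They were searched on both strands for AAGGTCA, the core of the site that NR4A receptors bind as monomers, GGAAGT, a core bound by ETS factors such as PU.1, and CCACCC, bound by KLF factors. The searched motifs do not overlap one another in these promoters, and matches are in capitals, written as GGGTGG and ACTTCC where they lie on the other strand.
Nr4a1, chr15:101266596-101266845, plus strand: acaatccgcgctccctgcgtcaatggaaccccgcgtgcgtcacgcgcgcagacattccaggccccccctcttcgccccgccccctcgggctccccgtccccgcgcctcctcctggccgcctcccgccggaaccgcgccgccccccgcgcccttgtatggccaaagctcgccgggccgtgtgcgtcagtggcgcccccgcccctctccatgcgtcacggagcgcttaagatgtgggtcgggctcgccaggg
Klf2, chr8:72318812-72319061, plus strand: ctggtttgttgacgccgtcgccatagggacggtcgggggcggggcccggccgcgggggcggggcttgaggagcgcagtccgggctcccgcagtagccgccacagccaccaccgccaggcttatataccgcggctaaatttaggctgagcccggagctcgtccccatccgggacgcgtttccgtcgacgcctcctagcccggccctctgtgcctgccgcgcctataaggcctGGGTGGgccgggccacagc
Cx3cr1, chr9:120068297-120068546, minus strand: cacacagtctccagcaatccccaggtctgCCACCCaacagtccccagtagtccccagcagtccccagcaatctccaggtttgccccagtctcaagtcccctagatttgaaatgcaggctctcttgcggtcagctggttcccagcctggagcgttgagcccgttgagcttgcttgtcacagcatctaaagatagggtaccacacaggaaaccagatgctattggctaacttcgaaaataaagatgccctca
Spn, chr7:127137824-127138073, minus strand: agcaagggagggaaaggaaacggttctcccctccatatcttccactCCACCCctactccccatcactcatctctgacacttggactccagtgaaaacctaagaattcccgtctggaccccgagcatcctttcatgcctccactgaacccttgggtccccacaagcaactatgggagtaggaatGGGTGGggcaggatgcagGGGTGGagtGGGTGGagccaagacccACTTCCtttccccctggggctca

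Nr4a1 held no match, Klf2 held 1 CCACCC match on the other strand 19 to 14 bases before its start, and Cx3cr1 held 1 CCACCC match 221 to 216 bases before its start. Spn held 4 CCACCC matches and 1 GGAAGT match, which lies on the other strand 23 to 18 bases before its start. Over all 10 members, CCACCC was found in 6 (Cx3cr1, Klf2, Spn, Eno3, Ceacam1 and, at the second of its 2 starts, Ace), GGAAGT in 3 (Treml4, Spn and Cd300e) and AAGGTCA in 0. For Eno3, Ceacam1 and the second Ace start, the bases just after the start were not found in a GENCODE M21 transcript of the gene. Among 32851 mouse promoters of the same length the shares were 28.075%, 19.741% and 4.079% in that order of motifs. These shares are per promoter, while a member was counted if any of its starts held a match. A match describes letters in a window and is not a binding site.

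Nr4a1 and Klf2 were the members that fell with T-ALL. Nr4a1, the orphan nuclear receptor on which patrolling monocytes depend and itself an immediate early gene, had 185.99 FPKM in T-ALL and 358.52 FPKM in normal Ly6cloF4/80lo cells, 68.03 and 177.38 FPKM in T-ALL and normal Ly6cloF4/80hi cells, and 237.45 and 536.63 FPKM in T-ALL and normal Ly6chiF4/80lo cells. Klf2, a zinc finger factor that keeps leukocytes quiescent, had 22.62 and 40.95 FPKM, 15 and 28.94 FPKM, and 19.64 and 38.06 FPKM for T-ALL and normal in the same order of gates. Each was lower in T-ALL in all 3 gates, and for Klf2 the 3 T-ALL values (15 to 22.62 FPKM) lay below the 3 normal values (28.94 to 40.95 FPKM), while for Nr4a1 the T-ALL values (68.03 to 237.45 FPKM) and the normal values (177.38 to 536.63 FPKM) overlapped.

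A limma fit of log2(FPKM + 1) with gate and state as terms tested T-ALL against normal over the 3 gates, with p adjusted by Benjamini-Hochberg over 11616 genes and a threshold of 0.05. The spread in this fit is how far the 3 gates depart from a shared state difference, and it holds no measure of variation between animals. Leaving out 1 library of a gate takes that whole gate out of the state difference. The fits without its normal and without its T-ALL library therefore give the same difference, from the other gates alone. They are not separate checks, and they leave less to estimate the spread from. Nr4a1 fell by 1.16 on the log2 scale (SE 0.17, limma adjusted p = 0.0158) and Klf2 fell by 0.88 (SE 0.127, limma adjusted p = 0.0155). They were 2 of 10 members called, both lower, beside 12.1% of all genes called in either direction (3.94% lower and 8.20% higher), and the members' median log2 difference was -0.02 beside -0.03 for all tested genes. The 8 other members did not pass, with log2 differences from -0.57 for Treml4 (SE 0.35, limma adjusted p = 0.293) to 1.00 for Spn (SE 0.354, limma adjusted p = 0.109). Neither call survived the loss of the Ly6cloF4/80hi pair: without the normal library of that gate Nr4a1 gave -1.06 (limma adjusted p = 0.081) and Klf2 -0.87 (0.0648), and without the T-ALL library the adjusted p were 0.0838 and 0.0602. Without the normal or the T-ALL Ly6chiF4/80lo library Spn passed at 1.52 (limma adjusted p = 0.0265 and 0.0268), and without the normal or the T-ALL Ly6cloF4/80lo library Treml4 passed at -1.09 (0.0396 and 0.0375).

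Several other immediate early and stress genes were also lower in T-ALL, though not all of them in every gate. Of a list of 10, 6 fell (Junb, Atf3, Ier2, Dusp1, Zfp36 and Hspa1a) and 0 rose, with a median log2 difference of -1.36. Of all genes, 3.94% fell and 8.20% rose. Fos, Fosb, Jun and Egr1 were the 4 that did not pass. In Ly6chiF4/80lo cells their log2 ratios of T-ALL over normal were 0.26, -0.03, 0.10 and -0.18, beside -1.17 for Nr4a1 and -0.92 for Klf2. The 6 that fell had -1.18 (Junb), -2.59 (Atf3), -0.58 (Ier2), -1.43 (Dusp1), -1.05 (Zfp36) and -3.57 (Hspa1a) in the same gate. All 10 were lower in T-ALL in both Ly6clo gates. Zfp36, which destabilises cytokine mRNA, had 339.67 FPKM in T-ALL and 932.07 FPKM in normal Ly6cloF4/80lo cells, 323.84 and 1023.91 FPKM in T-ALL and normal Ly6cloF4/80hi cells, and 406.7 and 844.77 FPKM in T-ALL and normal Ly6chiF4/80lo cells. The summed list was 1213.25, 1207.08 and 1951.17 FPKM in T-ALL and 3609.28, 3764.53 and 3124.06 FPKM in normal libraries of the 3 gates in the same order. None of the 10 was at 0 in any library. These genes can respond to the handling of cells. Red cell precursor genes also differed with T-ALL: 5 of 8 rose, and their sum was 4066.68, 24317.63 and 542.46 FPKM in T-ALL and 444.06, 2946.16 and 555.74 FPKM in normal libraries of the gates in the same order. Of 5 genes of granulocyte and monocyte progenitors 5 rose (median log2 difference 2.54), while 6 of 8 red pulp macrophage genes (median -1.24) and 4 of 8 dendritic cell genes (median -0.74) fell. The part of handling or of these cell types in the Nr4a1 and Klf2 differences was not tested.

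**Figure D2:**
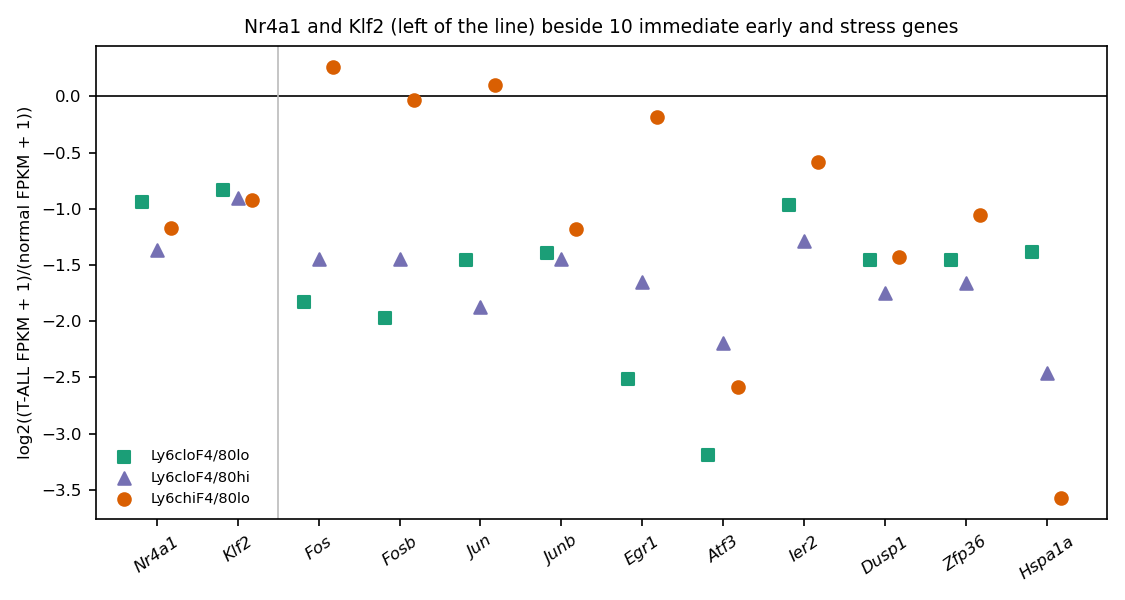
Log2 ratio of T-ALL over normal FPKM (pseudocount 1, y axis) within each gate for Nr4a1 and Klf2, left of the vertical line, and 10 immediate early and stress genes. Each symbol compares 2 libraries, so there are no error bars. All symbols of the 2 members lie below 0, as do those of the other 10 genes except Fos and Jun in Ly6chiF4/80lo cells.

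In Ly6cloF4/80hi against Ly6chiF4/80lo cells, with state as a block, 7 of 10 members fell and 0 rose, beside 12.8% of all genes called, 5.68% lower and 7.10% higher (660 and 825 genes, which became 783 and 647 after median-ratio rescaling and 742 and 564 after quantile normalization). The members' median log2 difference was -2.59 beside 0.12 for all tested genes. The 7 were Ace, Ceacam1, Cx3cr1, Pglyrp1, Spn, Eno3 and Nr4a1, and Klf2, Treml4 and Cd300e did not pass.

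Cx3cr1, whose ligand fractalkine keeps patrolling monocytes on the endothelium and alive, had 53.14 FPKM in T-ALL and 40.83 FPKM in normal Ly6cloF4/80lo cells, 14.5 and 12.11 FPKM in T-ALL and normal Ly6cloF4/80hi cells, and 87.9 and 197.5 FPKM in T-ALL and normal Ly6chiF4/80lo cells. The 3 gates did not overlap. In Ly6cloF4/80hi against Ly6chiF4/80lo cells Cx3cr1 fell by 3.22 on the log2 scale (SE 0.375, limma adjusted p = 0.00498). Without the normal Ly6cloF4/80hi library the difference was -2.90 and no longer passed (limma adjusted p = 0.0655).

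Ace, the angiotensin-converting enzyme and a marker of patrolling monocytes, spanned the widest range of the 10, with 65.97 FPKM in T-ALL and 47.79 FPKM in normal Ly6cloF4/80lo cells, 13.35 and 7.06 FPKM in T-ALL and normal Ly6cloF4/80hi cells, and 108.64 and 301.13 FPKM in T-ALL and normal Ly6chiF4/80lo cells. Its highest value was 42.7 times its lowest. Ace fell by 4.08 on the log2 scale in Ly6cloF4/80hi against Ly6chiF4/80lo cells (SE 0.527, limma adjusted p = 0.00797), and gave -3.41 without the normal Ly6cloF4/80hi library (limma adjusted p = 0.093, not passed).

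Ceacam1, an adhesion and inhibitory receptor, had 71.8 FPKM in T-ALL and 55.53 FPKM in normal Ly6cloF4/80lo cells, 19.29 and 13.26 FPKM in T-ALL and normal Ly6cloF4/80hi cells, and 132.07 and 236.99 FPKM in T-ALL and normal Ly6chiF4/80lo cells. The order of its 6 libraries was that of Cx3cr1, Ace, Spn and Eno3, and the gates did not overlap. It fell by 3.39 on the log2 scale in Ly6cloF4/80hi against Ly6chiF4/80lo cells (SE 0.337, limma adjusted p = 0.00318), and passed under all 12 alternative settings tried.

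Spn, the sialomucin CD43 that is dense on patrolling monocytes, had 84.97 FPKM in T-ALL and 38.75 FPKM in normal Ly6cloF4/80lo cells, 28.49 and 6.79 FPKM in T-ALL and normal Ly6cloF4/80hi cells, and 94.27 and 97.38 FPKM in T-ALL and normal Ly6chiF4/80lo cells. Both Ly6clo gates were higher in T-ALL, and the Ly6chiF4/80lo pair was nearly level. Spn fell by 2.67 on the log2 scale in Ly6cloF4/80hi against Ly6chiF4/80lo cells (SE 0.433, limma adjusted p = 0.0161). The call was lost without the normal Ly6cloF4/80hi library (-1.98, limma adjusted p = 0.0706), and at an unmoved difference without the normal (0.0814) or the T-ALL (0.0801) Ly6cloF4/80lo library.

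Eno3, the muscle form of the glycolytic enzyme enolase, had 128.09 FPKM in T-ALL and 89.55 FPKM in normal Ly6cloF4/80lo cells, 40.29 and 23.05 FPKM in T-ALL and normal Ly6cloF4/80hi cells, and 141.08 and 224.52 FPKM in T-ALL and normal Ly6chiF4/80lo cells. It fell by 2.51 on the log2 scale in Ly6cloF4/80hi against Ly6chiF4/80lo cells (SE 0.349, limma adjusted p = 0.00926), and gave -2.08 without the normal Ly6cloF4/80hi library (limma adjusted p = 0.068, not passed). Its ubiquitous relative Eno1 had 350.44 to 685.24 FPKM, so reads that both could take may have been split between them.

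Pglyrp1, a secreted peptidoglycan recognition protein also stored in neutrophil granules, had 144.25 FPKM in T-ALL and 109.33 FPKM in normal Ly6cloF4/80lo cells, 38.75 and 28.97 FPKM in T-ALL and normal Ly6cloF4/80hi cells, and 317.1 and 231.08 FPKM in T-ALL and normal Ly6chiF4/80lo cells. It was the member that was higher in T-ALL in all 3 gates, without passing the test of state (log2 0.42, SE 0.137, limma adjusted p = 0.089). It fell by 2.98 on the log2 scale in Ly6cloF4/80hi against Ly6chiF4/80lo cells (SE 0.168, limma adjusted p = 0.000535). Nr4a1 fell by 1.69 in the same comparison (SE 0.208, limma adjusted p = 0.00584).

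Markers of other cell types differed between these gates as well. The summed level of 12 neutrophil genes was 45407.25 FPKM in T-ALL and 13568.91 FPKM in normal Ly6chiF4/80lo cells, against 132.31 to 421.49 FPKM in the 4 Ly6clo libraries, and 10 of the 12 fell in Ly6cloF4/80hi against Ly6chiF4/80lo cells. Its highest genes were S100a8, S100a9 and Ngp. The summed level of 7 natural killer cell genes was 256.61 FPKM in T-ALL and 283.77 FPKM in normal Ly6cloF4/80lo cells, 137.4 and 110.34 FPKM in T-ALL and normal Ly6cloF4/80hi cells, and 232.06 and 517.93 FPKM in T-ALL and normal Ly6chiF4/80lo cells, and 3 of the 7 fell in the same comparison. The 8 genes of a red pulp macrophage list all rose in that comparison, with sums of 3060.88 FPKM in T-ALL and 8882.48 FPKM in normal Ly6cloF4/80hi cells and 242.68 to 473.24 FPKM in the other libraries. No gene of the neutrophil and natural killer cell lists was at 0 in any library, and the part of these cells in the member differences was not tested.

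The Ly6cloF4/80lo gate lay between the other gates for most members. Against Ly6chiF4/80lo cells 1 of 10 members fell and 0 rose, beside 4.73% of all genes called, 2.05% lower and 2.68% higher (238 and 311 genes, which became 284 and 159 after median-ratio rescaling and 240 and 165 after quantile normalization). That gene was Pglyrp1, which fell by 1.10 on the log2 scale (SE 0.168, limma adjusted p = 0.0247), and the members' median was -0.78 beside 0.19 for all tested genes. Ace (-1.67, SE 0.527, limma adjusted p = 0.126), Cx3cr1 (-1.48, SE 0.375, 0.0797) and Ceacam1 (-1.47, SE 0.337, 0.0657) did not pass. These 3 passed without the T-ALL Ly6chiF4/80lo library, at -2.72, -2.21 and -2.11 (limma adjusted p = 0.0219, 0.0222 and 0.0234). Of 7 B cell genes 5 rose in this comparison, with sums of 2198.29 FPKM in T-ALL and 3177.45 FPKM in normal Ly6cloF4/80lo cells and 1142.71 and 1299.99 FPKM in T-ALL and normal Ly6chiF4/80lo cells, and their part in the member differences was not tested. The Pglyrp1 call was lost without any 1 of the 4 libraries compared, at log2 differences of -1.13 without normal Ly6chiF4/80lo (limma adjusted p = 0.0594), -1.12 without normal Ly6cloF4/80lo (0.158), -1.07 without T-ALL Ly6chiF4/80lo (0.0977) and -1.08 without T-ALL Ly6cloF4/80lo cells (0.097).

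Between the 2 Ly6clo gates, 3 of 10 members rose in Ly6cloF4/80lo against Ly6cloF4/80hi cells and 0 fell, beside 3.56% of all genes called, 0.904% higher and 2.66% lower. They were Ceacam1 (log2 1.92, SE 0.337, limma adjusted p = 0.0397), Pglyrp1 (1.88, SE 0.168, 0.0036) and Nr4a1 (1.22, SE 0.208, 0.0344), and the members' median was 1.76 beside 0.10 for all tested genes. Ace (2.41), Spn (1.95), Eno3 (1.78) and Cx3cr1 (1.74) had differences of like size with limma adjusted p between 0.0518 and 0.0729. Without the normal or the T-ALL Ly6chiF4/80lo library these 4 passed, with limma adjusted p of 0.00592 and 0.00582 for Cx3cr1, 0.00316 and 0.00308 for Ace, 0.0142 and 0.0139 for Spn, and 0.00746 and 0.00769 for Eno3. Without the T-ALL Ly6cloF4/80hi library Ace (3.08, limma adjusted p = 0.0454), Spn (2.64, 0.0234) and Eno3 (2.21, 0.0435) passed too, and without the T-ALL Ly6cloF4/80lo library Treml4 passed in the other direction (-1.96, 0.0225). The Pglyrp1 call held without each library in turn. Leaving out the normal or the T-ALL Ly6chiF4/80lo library gave the same differences, from the 2 Ly6clo gates alone, so those fits are not separate checks. The Ceacam1 call was lost without normal Ly6cloF4/80lo (2.18, limma adjusted p = 0.178), normal Ly6cloF4/80hi (1.54, 0.307) or T-ALL Ly6cloF4/80lo cells (1.65, 0.16), and the Nr4a1 call without any library but normal Ly6chiF4/80lo (1.06 to 1.39, 0.0502 to 0.146).

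**Figure D3:**
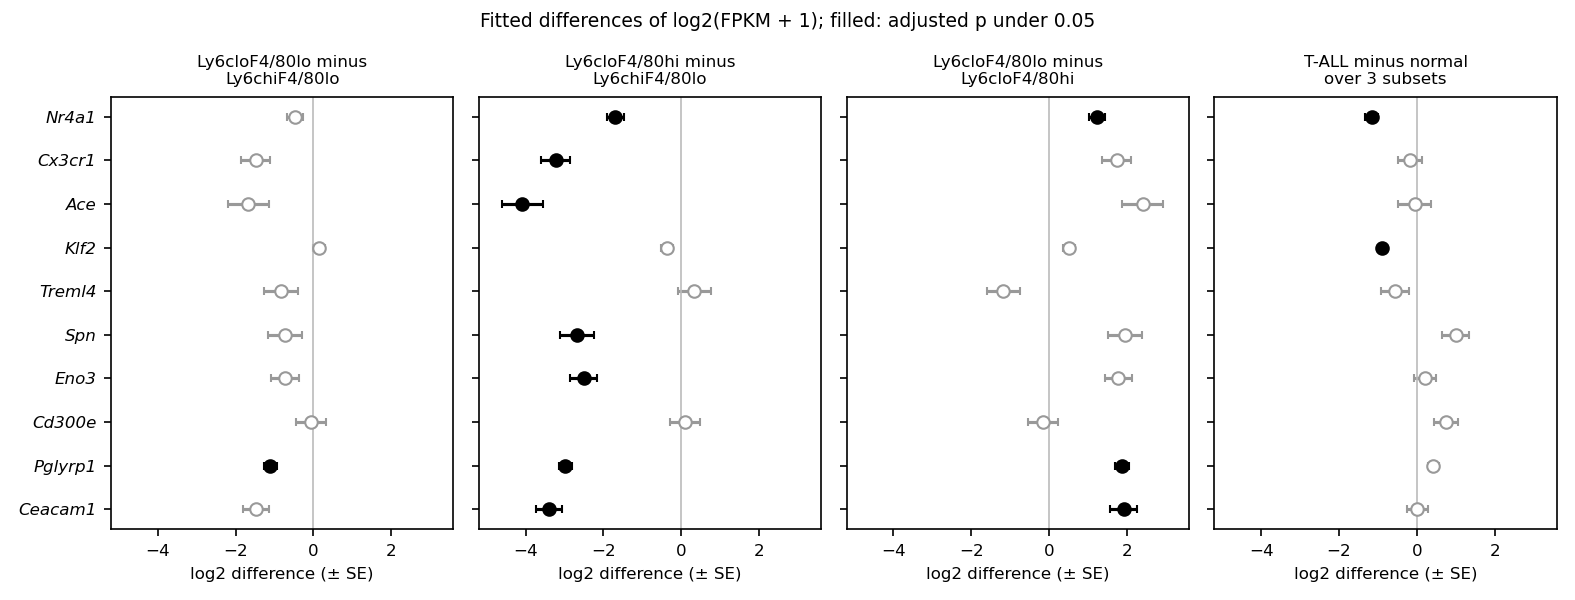
Fitted log2 differences of the 10 genes (x axis, log2(FPKM + 1), first-named gate or state minus the second, points with SE bars) in 4 comparisons over all 6 libraries. Filled points passed at a limma adjusted p under 0.05. The Ly6cloF4/80hi minus Ly6chiF4/80lo panel has 7 filled points, all left of 0, and the T-ALL minus normal panel has 2, Nr4a1 and Klf2.

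Treml4, Cd300e and Klf2 did not follow the other members across gates. Against Ly6chiF4/80lo cells Klf2 differed by log2 0.149 in Ly6cloF4/80lo cells (SE 0.155, limma adjusted p = 0.562). In Ly6cloF4/80hi cells it differed by -0.375 (SE 0.155, limma adjusted p = 0.171). Treml4, a receptor for late apoptotic and necrotic cells, had 163.84 FPKM in T-ALL and 117.16 FPKM in normal Ly6cloF4/80lo cells, 192.72 and 510.97 FPKM in T-ALL and normal Ly6cloF4/80hi cells, and 189.27 and 324.23 FPKM in T-ALL and normal Ly6chiF4/80lo cells. Its T-ALL values lay within 163.84 to 192.72 FPKM in all gates, while its normal values ran from 117.16 to 510.97 FPKM. None of its gate differences passed, at log2 0.34 in Ly6cloF4/80hi against Ly6chiF4/80lo cells (SE 0.429, limma adjusted p = 0.645) and -1.17 in Ly6cloF4/80lo against Ly6cloF4/80hi cells (0.213).

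Cd300e, an activating immunoglobulin-like receptor of monocytes, had 171.01 FPKM in T-ALL and 54.93 FPKM in normal Ly6cloF4/80lo cells, 104.42 and 113.46 FPKM in T-ALL and normal Ly6cloF4/80hi cells, and 131.35 and 78.17 FPKM in T-ALL and normal Ly6chiF4/80lo cells. It was highest of all libraries in T-ALL Ly6cloF4/80lo cells and lowest in normal cells of the same gate. Its log2 difference with T-ALL over the gates was 0.75 (SE 0.316, limma adjusted p = 0.151, not passed). Its family members Cd300a, Cd300c2, Cd300ld, Cd300lf and Cd300lb were expressed in the same libraries (7.1 to 170.66 FPKM), so shared reads are possible. Relatives of Ceacam1, Treml4 and Nr4a1 had lower levels than these members, with Ceacam2 at most 2.37 FPKM, Treml1 at most 1.67 FPKM, Treml2 at 4.52 to 11.54 FPKM, Nr4a2 at most 2.6 FPKM and Nr4a3 at most 4.45 FPKM. For Klf2, the relative Klf4 was lower (2.04 to 18.2 FPKM) but Klf6 was higher in each library (45.67 to 111.54 FPKM), so shared reads are possible there too.

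Within single gates 1 T-ALL library is set beside 1 normal library and no test is possible. T-ALL was lower in all 3 gates for 2 of 10 members and higher in all 3 for 1, beside 30.0% and 27.9% of tested genes. The direction of the other members differed between gates, for Spn and Cd300e with a ratio near 0 in 1 gate. In Ly6chiF4/80lo cells 3 of 10 members were at least 2-fold lower in T-ALL (Nr4a1, Cx3cr1 and Ace) and 0 were 2-fold higher, beside 4.46% and 7.51% (12.0% in all) of genes with at least 5 FPKM. In Ly6cloF4/80lo cells 2 were 2-fold higher (Spn and Cd300e) and 0 lower, beside 5.69% and 1.53% (7.22% in all). In Ly6cloF4/80hi cells 1 was 2-fold higher (Spn) and 2 lower (Nr4a1 and Treml4), beside 10.8% and 6.55% (17.3% in all). No member was 2-fold higher in 1 gate and 2-fold lower in another, as 0.231% of genes were. After quantile normalization the 2-fold lower members numbered 5 in Ly6chiF4/80lo cells and 1 in Ly6cloF4/80lo cells.

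Cx3cr1, Ace, Spn, Eno3 and Ceacam1, 5 of 10 members, were higher in T-ALL in both Ly6clo gates and lower in Ly6chiF4/80lo cells, a pattern held at any size by 9.48% of tested genes. For Ace the log2 ratio of T-ALL over normal was 0.46 in Ly6cloF4/80lo, 0.83 in Ly6cloF4/80hi and -1.46 in Ly6chiF4/80lo cells, and for Cx3cr1 it was 0.37, 0.24 and -1.16 in the same order. For Spn the third ratio was only -0.05, and it ran from -0.141 to 0.02 over 3 alternative settings, so its direction was not stable. Nr4a1 and Klf2 were lower in all 3 gates (30.0% of tested genes) and Pglyrp1 was higher in all 3 (27.9%).

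The difference between the change in Ly6chiF4/80lo cells and the mean change in the 2 Ly6clo gates was tested in a fit with that term added after the values had been seen, which leaves 1 residual degree of freedom. It was -2.11 for Ace (SE 0.299), -1.56 for Spn (SE 0.398), -1.47 for Cx3cr1 (SE 0.269), -1.31 for Eno3 (SE 0.302) and -1.28 for Ceacam1 (SE 0.275). No member passed, with limma adjusted p of 0.245 to 0.449 for these 5, and 0 of 11616 genes did, while 868 genes (7.47%) and these 5 members had an unadjusted p under 0.05. With a pseudocount of 0.1, 1 gene passed. The natural killer cell list given above was lower in T-ALL in 7 of 7 genes in Ly6chiF4/80lo cells and in 3 of 7 and 2 of 7 genes in Ly6cloF4/80lo and Ly6cloF4/80hi cells. Neutrophil genes were higher in T-ALL in 11 of 12 genes in Ly6chiF4/80lo cells (median log2 ratio 1.62) and lower in 9 and 10 of 12 in Ly6cloF4/80lo (-1.69) and Ly6cloF4/80hi cells (-0.68). T cell genes were lower in 11 of 12 in Ly6chiF4/80lo cells and in 11 and 3 of 12 in Ly6cloF4/80lo and Ly6cloF4/80hi cells. Red cell precursor genes had median log2 ratios of 3.08 in Ly6cloF4/80lo, 3.50 in Ly6cloF4/80hi and 0.57 in Ly6chiF4/80lo cells. The part of these cell types in the member ratios was not tested.

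**Figure D4:**
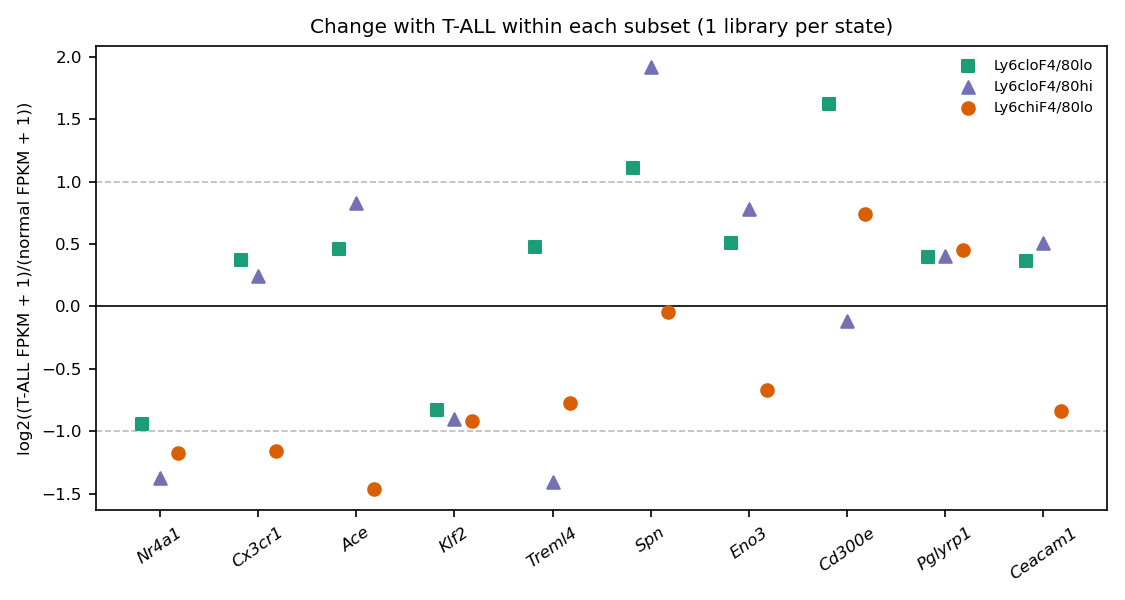
Log2 ratio of T-ALL over normal FPKM (pseudocount 1, y axis) for each of the 10 genes (x axis) in Ly6cloF4/80lo (squares), Ly6cloF4/80hi (triangles) and Ly6chiF4/80lo cells (circles). Each symbol compares 2 libraries, so there are no error bars, and dashed lines mark a 2-fold difference. For Cx3cr1, Ace, Spn, Eno3 and Ceacam1 the circle lies below 0 and the other symbols above it.

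Genes of like pattern were sought among 7739 genes by the root mean square difference of log2(FPKM + 1), centred per gene, over the 6 libraries. The gene most like both Cx3cr1 (0.14) and Ceacam1 (0.11) was Apoc2, an activator of lipoprotein lipase, with 66.28 FPKM in T-ALL and 48.46 FPKM in normal Ly6cloF4/80lo cells, 18.33 and 12.23 FPKM in T-ALL and normal Ly6cloF4/80hi cells, and 101.64 and 190.32 FPKM in T-ALL and normal Ly6chiF4/80lo cells. Cx3cr1 and Ceacam1 came next in each other's order, at 0.14 (rank 2 for both), and Ceacam1 was the gene most like Ace (0.36), followed by Arhgef10l (0.40). Eno3 was most like Itgal (0.11) and Slc2a6 (0.17).
Klf2 was most like Tsc22d3 (0.08), a glucocorticoid-induced leucine zipper gene, and Bhlhe40 (0.10). Nr4a1 was most like Tifab (0.26) and Prr5l (0.28), Pglyrp1 most like Trem1 (0.21) and Palm (0.30), and Spn most like Palm (0.35) and Smpdl3b (0.38). Treml4 was most like Acer3 (0.16) and Abcc5 (0.17), and Cd300e most like H4c17 (0.20).

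A list of 25 other genes linked to patrolling monocytes, of which 23 were tested, was examined beside them. Csf1, which is among the 23, had at most 2.19 FPKM. Cx3cl1, which encodes fractalkine, and Il34 were too low to test. In Ly6cloF4/80hi against Ly6chiF4/80lo cells 6 of the 23 fell and 0 rose, beside 5.68% of all genes lower and 7.10% higher, with a list median of -0.26 beside 0.12 for all tested genes. S1pr5, the sphingosine receptor needed for egress from bone marrow, fell by 3.12 on the log2 scale (SE 0.517, limma adjusted p = 0.0174) and Itgal, the LFA-1 alpha chain used in patrolling, fell by 2.62 (SE 0.347, limma adjusted p = 0.00776). The others were Tnfrsf1b, a TNF receptor (-1.71), the lipid carrier gene Fabp4 (-1.65), Klf4, a factor needed for monocyte formation (-1.61), and the scavenger receptor gene Cd36 (-1.49). Of the natural killer cell genes given above, 3 of 7 fell in the same comparison. The part of other cell types in the differences of this list was not tested.

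S1pr5 had 65.33 FPKM in T-ALL and 36.22 FPKM in normal Ly6cloF4/80lo cells, 11.11 and 6.08 FPKM in T-ALL and normal Ly6cloF4/80hi cells, and 50.42 and 124.47 FPKM in T-ALL and normal Ly6chiF4/80lo cells, so that it was higher in T-ALL in the Ly6clo gates and lower in the Ly6chi gate. Itgal had 130.63 and 88.32 FPKM, 45.46 and 25.49 FPKM, and 172.95 and 265.02 FPKM for T-ALL and normal in the same order of gates. With T-ALL 1 of the 23 rose and 2 fell, a share near that of all genes (12.1% called, 8.20% higher and 3.94% lower), with a list median of -0.46 beside -0.03 for all tested genes. Fcgr4, the activating Fc receptor of patrolling monocytes, rose by 1.30 on the log2 scale (SE 0.297, limma adjusted p = 0.043), Klf6 fell by 1.12 (SE 0.144, 0.0121) and Hes1, a Notch target, fell by 0.74 (SE 0.137, 0.026).

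Fcgr4 had 424.82 FPKM in T-ALL and 92.03 FPKM in normal Ly6cloF4/80lo cells, 372.19 and 202.54 FPKM in T-ALL and normal Ly6cloF4/80hi cells, and 245.09 and 137.77 FPKM in T-ALL and normal Ly6chiF4/80lo cells, and its 3 T-ALL values lay above its 3 normal values. Over Ly6chiF4/80lo cells, 2 of the 23 rose in Ly6cloF4/80lo cells (2.68% of all genes higher), the integrin gene Itgax (1.19, SE 0.18, limma adjusted p = 0.0246) and Nr4a3, a relative of Nr4a1 that was low throughout (1.42, SE 0.277, 0.0458), and 0 fell. Itgax also rose in Ly6cloF4/80lo against Ly6cloF4/80hi cells (1.26, SE 0.18, limma adjusted p = 0.0203), where it was 1 of the 23 (0.904% of all genes higher) and 0 fell.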

How the data were processed

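The 6 libraries were prepared from total RNA and sequenced on an Illumina HiSeq instrument, as the labels' protocols record. For each Entrez gene the authors deposited FPKM, which they made with Bowtie2 2.2.5 and RSEM according to the submitters' processing notes. Build and annotation are not given in the sources used. A gene not listed in a library was taken as 0. Symbols came from RefSeq (16017 of 16058 identifiers, 99.7%). Read depth was estimated from the spacing of low FPKM values and transcript lengths of GENCODE M21.

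Values were analysed as log2(FPKM + 1) with limma 3.58.1 (statmod 1.5.0, R 4.3.3, trended and robust prior) on the 11616 genes that reached 1 FPKM in 2 or more libraries. An additive model of gate and state left 2 residual degrees of freedom. Tests were two-sided with Benjamini-Hochberg adjustment. Gate or state, not a replicate number, was the block. The spread is that of sorted fractions around the additive model, so p-values do not measure variation between animals. An unpaired exact test of 3 against 3 libraries cannot go below p = 0.1. The fit and the depth estimate were tested on simulated data. Those for the fit held independent noise around an additive model, with no differences between gates in their response. They cannot show how the p-values behave in these libraries. Figures used Python 3.11.15, numpy 2.4.6, pandas 2.3.3 and matplotlib 3.10.9.

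The members, lists, settings and motifs were chosen with earlier results of these data known. All 10 members are named, as are the list genes that passed, up to 3 of the highest genes of a marker list, and the 2 genes closest to each member in pattern, except items that are not reported here. The test of the difference between gates in their response to T-ALL and the counts of 2-fold members were added after the values were seen.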

Additional observations from a re-analysis of the deposited data

Results flagged for a closer look

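Treml4 and Cd300e were picked out because T-ALL was higher than normal in one Ly6clo gate and lower in the other. For Treml4 the log2 ratio of T-ALL over normal was 0.48 in Ly6cloF4/80lo and -1.40 in Ly6cloF4/80hi cells, a difference of 1.88. For Cd300e it was 1.62 in Ly6cloF4/80lo and -0.12 in Ly6cloF4/80hi cells, a difference of 1.74. Each ratio rests on 1 library per state, and neither difference was tested.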

How the results depend on the processing

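No paired analysis was possible because the labels give no replicate numbers to pair by; the fit instead compares states within gates and gates within states, and the block named here is that gate or state. The members called in Ly6cloF4/80hi against Ly6chiF4/80lo cells numbered 7 and stayed at 7 without the filter on low values, with a pseudocount of 0.1, after both rescalings and with a limma prior that had no trend or robust term. They were 5 without the block and 3 to 7 with 1 library left out. Between T-ALL and normal spleen 2 members were called, 0 without the block and 0 to 3 with 1 library left out. For Ly6cloF4/80lo against Ly6chiF4/80lo cells 1 was called, 0 without the filter or the block and 0 to 3 with 1 library left out. Ly6cloF4/80lo against Ly6cloF4/80hi cells had 3 called, 4 with a pseudocount of 0.1 (Eno3 was gained at 1.81, limma adjusted p = 0.0465), 1 without the filter, 1 after quantile normalization, 0 without the block and 1 to 7 with 1 library left out. Over the 12 alternative settings, the Nr4a1 call in this last comparison was lost in 9, the Ceacam1 call in 7 and the Pglyrp1 call in 1. For T-ALL against normal, and for a comparison of the other gates, leaving out either library of a gate gave the same difference. The calls that changed with a library left out are named above. The cause was not tested.

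Over all genes, T-ALL against normal called 1410 genes, 370 without the filter, 161 without the block and 283 to 923 with 1 library left out. Ly6cloF4/80lo against Ly6chiF4/80lo called 549 genes, 156 without the filter, 0 without the block (with 1 member call lost) and 81 to 718 with 1 library left out. Ly6cloF4/80hi against Ly6chiF4/80lo called 1485 genes, 867, 197 and 617 to 1277 in the same order, and Ly6cloF4/80lo against Ly6cloF4/80hi called 414 genes, 173, 0 and 127 to 668. Quantile normalization gave 5 members at least 2-fold lower with T-ALL in Ly6chiF4/80lo cells and 1 in Ly6cloF4/80lo cells. A pseudocount of 0.1 gave 1 gene in the test of the difference between gates.

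Reversed directions were limited to values that had not passed. For T-ALL against normal these were Cx3cr1 (0.307) and Ace (0.645) without either Ly6chiF4/80lo library, Eno3 (-0.077) without either Ly6cloF4/80hi library, and Ceacam1 after quantile normalization (-0.10), without either Ly6cloF4/80lo library (-0.17) and without either Ly6cloF4/80hi library (-0.237). Over the libraries left out in turn they ranged from -0.459 to 0.307 for Cx3cr1, -0.503 to 0.645 for Ace, -0.077 to 0.646 for Eno3 and -0.237 to 0.437 for Ceacam1. In Ly6cloF4/80lo against Ly6chiF4/80lo cells they were Klf2 after median-ratio rescaling (-0.059), Spn without normal Ly6chiF4/80lo (0.054, lowest -1.509) and Cd300e without normal Ly6cloF4/80lo cells (0.593, lowest -0.716). In Ly6cloF4/80hi against Ly6chiF4/80lo cells they were Treml4 without normal Ly6cloF4/80hi (-0.288, highest 0.968), and Cd300e after median-ratio rescaling (-0.012) and without normal Ly6cloF4/80hi cells (-0.548, highest 0.752). Cd300e reversed in Ly6cloF4/80lo against Ly6cloF4/80hi cells without normal Ly6cloF4/80lo (0.491) and without normal Ly6cloF4/80hi cells (0.486, lowest -0.818). In the difference between gates in their response, median-ratio rescaling reversed Nr4a1 (0.10), Klf2 (0.055) and Cd300e (0.107), and quantile normalization reversed Klf2 (0.074), Cd300e (0.01) and Pglyrp1 (-0.11). The untested ratio of T-ALL over normal for Spn in Ly6chiF4/80lo cells also changed sign, with a highest value of 0.02. Median-ratio rescaling moved the median of all genes to 0.005 in Ly6cloF4/80lo against Ly6chiF4/80lo, 0.022 in Ly6cloF4/80hi against Ly6chiF4/80lo and 0.013 in Ly6cloF4/80lo against Ly6cloF4/80hi cells.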

Other observations

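The values of Adgre4, a receptor of the F4/80 family on patrolling monocytes, and Tcf7l2, a Wnt pathway factor, were looked up after their resemblance to Treml4 had been seen. Adgre4 had 96.85 FPKM in T-ALL and 67 FPKM in normal Ly6cloF4/80lo cells, 101.91 and 294.02 FPKM in T-ALL and normal Ly6cloF4/80hi cells, and 133.31 and 271.11 FPKM in T-ALL and normal Ly6chiF4/80lo cells. Tcf7l2 had 20.13 and 14.81 FPKM, 43.18 and 136.27 FPKM, and 16.9 and 31.05 FPKM for T-ALL and normal in the same order of gates. Both were highest in normal Ly6cloF4/80hi cells and lowest in normal Ly6cloF4/80lo cells, as Treml4 was. Neither passed the test of T-ALL against normal (log2 -0.67 with limma adjusted p = 0.259 for Adgre4, and -0.69 with 0.237 for Tcf7l2).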
